A study of Homo sapiens with 12 samples.

Results

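Transcripts of 10 genes were followed through a test of BMP signaling in a lung cancer cell line. They encode the 4 FGF receptor kinases (FGFR1 to FGFR4), the kinase-lacking receptor FGFRL1, the Sprouty inhibitors SPRY1, SPRY2 and SPRY4, and the Sprouty-related inhibitors SPRED1 and SPRED2. All 10 were among the 58302 gene identifiers of the count table, matched by Ensembl identifier to GENCODE v44 symbols. FGFR3 was selected on its log2 fold changes with BMP in WT and KO cells in these same libraries, so every value of it below is a description without a test. The other 9 were picked for their place in the same pathway, with earlier results of these data known.

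NCIH838 is a human lung adenocarcinoma line. Its MIB1-iKO derivative, obtained by single-cell cloning, carries Cas9 under doxycycline (Dox) control and guide RNA against MIB1, which encodes a ubiquitin ligase. RNA was sequenced from 12 libraries in 4 groups of 3. All cells spent 3 days in 50 nM of the BMP type I receptor inhibitor LDN193189 (LDN, spelled LDN189193 in the labels), with 0.5 ug/ml Dox for the KO groups and no Dox for the WT groups. BMP4 at 10 ng/ml was then added to all cells for 24 hours, together with LDN in the BMP-off groups and DMSO in the BMP-on groups. Dox had been given to all 6 KO libraries and to none of the WT libraries, so effects of Dox or of Cas9 cannot be told apart from those of MIB1 loss. Nothing states that the 3 libraries of a group came from separate experiments, so p values measure the spread between these libraries, which may be technical.

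FGF ligands bind FGF receptors together with heparan sulfate proteoglycans. The activated kinases pass the signal through adaptors to RAS, RAF, MEK and ERK. ERK activity raises transcription of Sprouty and SPRED genes, whose products dampen the same cascade, and these transcripts are therefore widely used as a readout of it. BMP receptors signal separately, through SMAD1, SMAD5 and SMAD9, which bind GC-rich sites such as GGCGCC. In lung, FGF receptors and Sprouty proteins are known for their part in branching of the airways.

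The sequences just upstream of FGFR3 and SPRY2 are shown because FGFR3 had the largest BMP responses of the receptors and SPRY2 was the only Sprouty gene that passed a test. The FGFR3 gene lies on chromosome 4 from 1793293 to 1808872 (plus strand, GRCh38, GENCODE v44), and SPRY2 lies on chromosome 13 from 80335976 to 80341126 (minus strand). Each sequence holds the 250 bases before a RefSeq start site on GRCh38.p14, read 5′ to 3′ along the gene, at chr4:1793043-1793292 and chr13:80341127-80341376. Both lie just outside the bounds of their own gene given above, and overlap with other genes was not examined. Capitals mark GGCGCC.
FGFR3: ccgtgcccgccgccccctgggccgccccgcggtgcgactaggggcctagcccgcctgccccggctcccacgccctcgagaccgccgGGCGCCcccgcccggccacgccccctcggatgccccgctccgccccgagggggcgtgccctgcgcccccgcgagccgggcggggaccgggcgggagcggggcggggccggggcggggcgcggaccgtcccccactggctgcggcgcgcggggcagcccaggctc
SPRY2: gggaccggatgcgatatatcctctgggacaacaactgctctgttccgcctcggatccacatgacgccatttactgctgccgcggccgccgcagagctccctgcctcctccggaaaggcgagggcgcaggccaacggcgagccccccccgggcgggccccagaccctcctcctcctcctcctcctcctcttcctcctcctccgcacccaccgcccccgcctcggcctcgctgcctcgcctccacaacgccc

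The FGFR3 window held GGCGCC 1 time, and this SPRY2 window did not hold it. GC content was 86.8% for FGFR3 and 70.4% for SPRY2. Over both strands, GGCGCC occurred in 16.4% of the 35116 windows of the same length in the RefSeq table, with chromosome 8 left out. FGFR1 lies on chromosome 8 and so had no window. The other 9 of the 10 members had 18 windows in all. GGCGCC also occurred in windows of FGFR2, FGFRL1, SPRED1 and SPRY4 and in another SPRY2 window. No window of FGFR4, SPRED2 or SPRY1 held it. The share of 16.4% is over all windows and was not matched for their GC content. The SMAD palindrome GTCTAGAC (0.182% of all windows) and the ETS motif CCGGAAGT (3.42%) occurred in none of the 18 windows. These are matches of letters and were not related to binding.

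Library depth was between 19124010 and 29498000 counts. Levels are given as CPM, the counts of a gene scaled to a fixed total per library after TMM scaling, whose factors were 0.984 to 1.018. MIB1 itself was at 144 to 176 CPM in the 6 WT libraries and at 31.03 to 34.4 CPM in the 6 KO libraries. The epithelial transcripts KRT8, KRT18, EPCAM and CDH1 were all above 1 RPKM in every library, whereas KRT19 stayed under 1 RPKM (the authors' reads scaled to gene length and library size). Of the lung lineage markers, all 4 (NKX2-1, SFTPB, SFTPC and NAPSA) stayed under 1 RPKM, so the lung origin was not visible in them. Libraries of a group also differed in how levels ran with GC content. In each library, the deviation of genes from their group mean was correlated by rank with GC content, which does not compare groups. This correlation went from -0.603 in KO BMP-off replicate 2 to 0.586 in KO BMP-off replicate 3. Values without each of these libraries are given for the members that passed in KO cells, and values with a correction for GC are plotted for all 9 tested members.

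Of the 10 members, 9 were expressed enough to be tested among 17188 genes by the quasi-likelihood test of edgeR, and a gene passed where its p, adjusted by the Benjamini-Hochberg method, did not exceed 0.05. In WT cells, 2 members were higher with BMP-on (FGFR3 and FGFRL1) and 0 were lower, against 1.91% of all tested genes higher and 2.01% lower. In KO cells, 4 members were higher (FGFR3, FGFR4, FGFRL1 and SPRY2) and 0 were lower, where 11.1% of all genes were higher and 10.9% lower. Between KO and WT cells with BMP-on, 2 members were higher (FGFR3 and SPRY2) and 0 lower, against 1.32% and 2.34% of all genes. With the further requirement of a log2 fold change of at least 1, FGFR3 was the only member that rose, in WT cells (0.349% of all genes) and in KO cells (1.41%). FGFR3 was chosen for these responses, and its own calls are not evidence about the group.

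**Figure D1:**
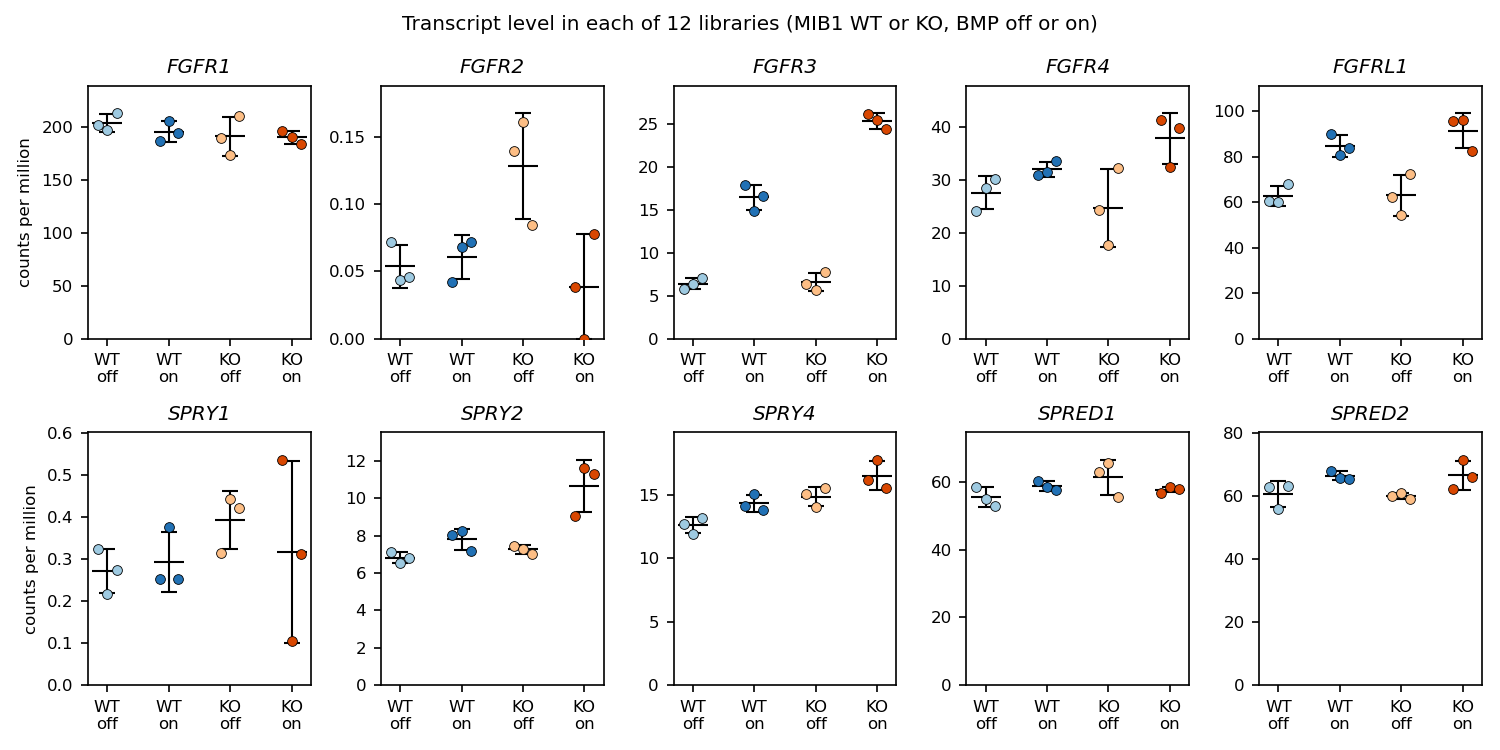
CPM of each member (vertical axis, linear and starting at 0, with its own scale per gene) in the 4 groups of 3 libraries, WT or KO with BMP-off or BMP-on. Points are libraries, horizontal lines means and bars SD, and FGFR3 separates into 3 levels, with means of 6.41 and 6.64 CPM in the BMP-off groups, 16.5 CPM in WT BMP-on and 25.4 CPM in KO BMP-on.

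FGFR3 encodes a receptor kinase best known for restraining growth of cartilage. It stood at 5.75, 6.39 and 7.09 CPM in WT BMP-off and at 17.9, 14.9 and 16.7 CPM in WT BMP-on. In KO cells it stood at 6.42, 5.70 and 7.78 CPM with BMP-off and at 26.3, 25.5 and 24.4 CPM with BMP-on. The BMP-off groups overlapped each other, every WT BMP-on library lay above them, and every KO BMP-on library lay above those in turn. The log2 fold change on BMP was 1.37 (SE 0.11) in WT cells and 1.94 (SE 0.11) in KO cells, which are 2.58-fold and 3.83-fold. KO exceeded WT by 0.63 (SE 0.10) with BMP-on and by 0.05 (SE 0.12) with BMP-off. The BMP response was larger in KO than in WT cells by 0.57 (SE 0.16) on the log2 scale. Its transcript has a GC content of 62.2%, above that of 92.7% of the tested genes. With the GC correction, the BMP response was 1.26 in WT and 1.61 in KO cells, and the difference between these responses was 0.35. The KO response was 1.84 without KO BMP-off replicate 2 and 2.05 without KO BMP-off replicate 3, and the difference between the responses was 0.48 and 0.68 in turn.

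FGFR1, a receptor widely expressed in mesenchymal and lung cancer cells, varied little between groups. It stood at 202, 197 and 213 CPM in WT BMP-off, 187, 206 and 194 CPM in WT BMP-on, 189.8, 173 and 210.5 CPM in KO BMP-off and 196, 191 and 184 CPM in KO BMP-on. The WT BMP-off libraries lay just above those of KO BMP-on, and all other pairs of groups overlapped. Its log2 fold change on BMP was -0.06 (interval of 2 SE on either side, -0.18 to 0.06) in WT cells and -0.01 (-0.13 to 0.12) in KO cells, with edgeR adjusted p of 0.713 and 0.949. Its locus overlaps LETM2 on the other strand, which had a median of 136 counts per library, so a small part of the reads could belong to either gene if strand was not used in counting.

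FGFR4, the receptor for the bile acid hormone FGF19 in liver, stood at 24.1, 28.6 and 30.2 CPM in WT BMP-off and at 31.01, 31.4 and 33.6 CPM in WT BMP-on. The KO cells gave 24.3, 17.6 and 32.3 CPM with BMP-off and 41.4, 32.4 and 39.9 CPM with BMP-on. The KO BMP-off libraries were the most scattered of the 4 groups (SD 7.33 CPM), and the highest of them lay just under the lowest KO BMP-on library. FGFR4 rose on BMP in KO cells by a log2 fold change of 0.62 (SE 0.18, edgeR adjusted p = 0.0316). In WT cells the fold change was 0.22 (SE 0.18, adjusted p = 0.640), and the difference between these responses was 0.41 (SE 0.25, adjusted p = 0.570). FGFR4 transcripts have a GC content of 63.4%, higher than in 94.8% of tested genes. The KO response was 0.43 (adjusted p = 0.0273) without KO BMP-off replicate 2, 0.84 (adjusted p = 0.000580) without KO BMP-off replicate 3 and 0.27 (adjusted p = 0.00730) with the GC correction. It did not pass without KO BMP-off replicate 1 (0.60, adjusted p = 0.0815), KO BMP-on replicate 1 (0.55, adjusted p = 0.106) or KO BMP-on replicate 3 (0.58, adjusted p = 0.0780), nor in a fit of the KO libraries alone (0.62, adjusted p = 0.0899).

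FGFR2, the receptor that responds to FGF7 and FGF10 in epithelia, had 0 to 4 counts per library and 22 counts over all 12. It was at 2, 1 and 1 counts in WT BMP-off, 1, 2 and 2 in WT BMP-on, 4, 4 and 2 in KO BMP-off and 1, 0 and 2 in KO BMP-on. It did not enter the test, and at this depth no difference could be read from it.

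Compared per length, by the authors' RPKM, FGFR1 was highest among the receptor kinases with a median of 30.8 RPKM over the libraries, followed by FGFR4 at 10.1, FGFR3 at 2.64 and FGFR2 at 0.011. The RPKM ranges of FGFR1 (28.7 to 34.2), FGFR4 (5.96 to 13.3) and FGFR2 (0 to 0.026) did not meet, while the highest FGFR3 library (6.05) exceeded the lowest FGFR4 library. FGFR3 made up 3.48% ± 0.21 (SD, n = 3) of the summed RPKM of FGFR1 to FGFR4 in WT BMP-off and 8.49% ± 1.00 in WT BMP-on. In KO cells it made up 3.86% ± 0.09 when BMP was off and 12.2% ± 0.44 when it was on. The share of FGFR1 was 75.7% ± 1.87, 68.6% ± 1.70, 76.3% ± 3.22 and 62.4% ± 2.06 in the same order. FGFR4 held between 16.5% and 27.1% in every library. The sum itself ran from 36.1 to 45.8 RPKM in the BMP-off libraries and from 43.99 to 50.2 RPKM in the BMP-on libraries. These shares contain FGFR3 and are given as a description.

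**Figure D2:**
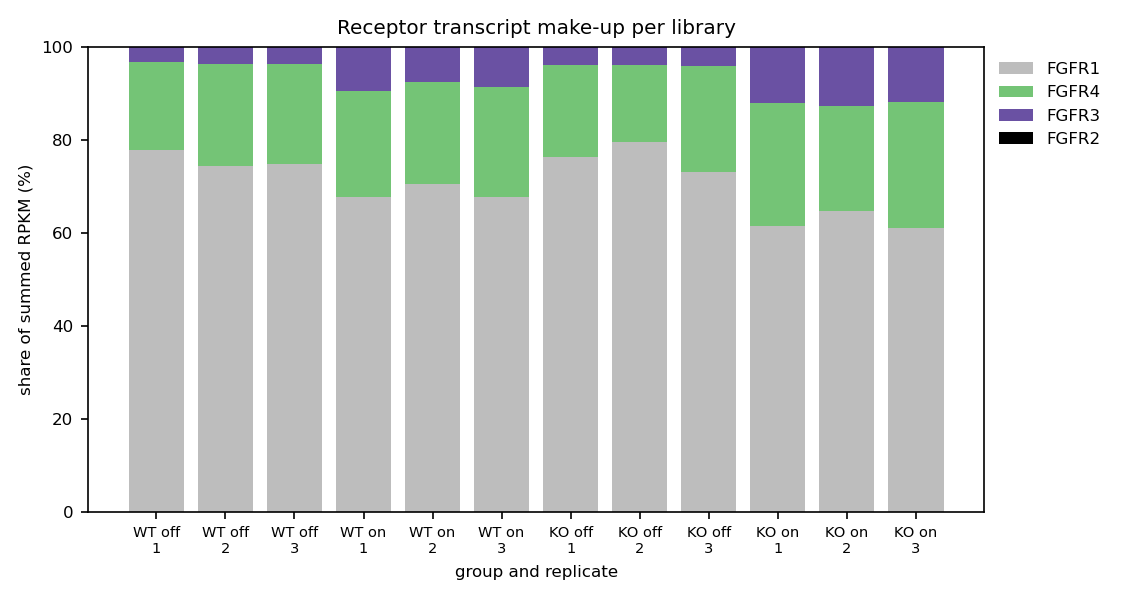
Share of each receptor kinase in the summed RPKM of FGFR1 to FGFR4 (vertical axis, percent) in each of the 12 libraries (horizontal axis, by group and replicate). FGFR1 is the largest part of every bar, and the FGFR3 part grows from 3.48% to 8.49% in WT and from 3.86% to 12.2% in KO cells, while FGFR2 is too small to see.

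FGFRL1 encodes a receptor that binds FGFs but has no kinase, and is known as a brake on the pathway. It lies on chromosome 4 from 1009936 to 1026898 (plus strand, GRCh38, GENCODE v44), 766.4 kb from FGFR3. It stood at 60.6, 60.0 and 67.9 CPM in WT BMP-off and at 89.9, 80.7 and 83.7 CPM in WT BMP-on. In the KO groups it was at 62.4, 54.2 and 72.3 CPM with BMP-off and at 95.7, 96.3 and 82.6 CPM with BMP-on. Every BMP-on library lay above every BMP-off library, and the WT and KO libraries of each condition overlapped. FGFRL1 rose on BMP by 0.43 (SE 0.09, edgeR adjusted p = 0.0185) in WT cells and by 0.54 (SE 0.09, adjusted p = 0.00111) in KO cells on the log2 scale. The difference between these responses was 0.11 (SE 0.13, adjusted p = 0.774).

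FGFRL1 transcripts are 63.5% GC, above 95.0% of tested genes. With the GC correction, FGFRL1 still rose in WT cells (0.31, adjusted p = 0.0170), whereas in KO cells the fold change was 0.16 and did not pass (adjusted p = 0.135). The sign of the difference between the responses also turned, to -0.14 (adjusted p = 0.602). Without KO BMP-off replicate 2 the KO response was 0.44 (adjusted p = 0.000380), and without KO BMP-off replicate 3 it was 0.64 (adjusted p = 1.92e-05). The WT response did not pass without WT BMP-off replicate 1 (0.41, adjusted p = 0.0526), WT BMP-off replicate 2 (0.40, adjusted p = 0.0965) or WT BMP-on replicate 1 (0.39, adjusted p = 0.0689). Between FGFRL1 and FGFR3, 11 other genes were tested. By edgeR, 0 of them rose on BMP in either genotype at the adjusted threshold. Over all genes, 1.91% rose in WT and 11.1% in KO cells. The median log2 fold change of the 11 genes on BMP was 0.11 in WT and 0.16 in KO cells. Over all tested genes it was 0.00 and 0.01. In KO cells 2 of the 11 fell on BMP (10.9% of all genes), and under BMP-on 2 of the 11 were lower in KO cells compared with WT (2.34% of all genes).

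**Figure D3:**
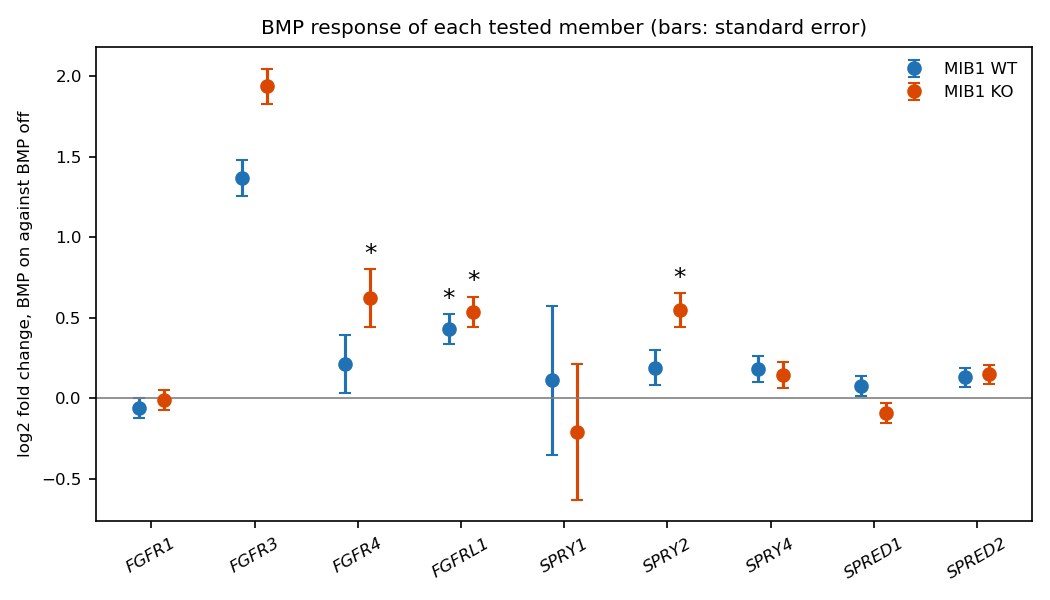
Log2 fold change of BMP-on over BMP-off (vertical axis) for the 9 tested members (horizontal axis) in WT (blue) and KO cells (orange), with bars of 1 SE. Asterisks mark an adjusted p that passed the threshold of 0.05 and are not set for FGFR3, which was chosen for its response: FGFRL1 carries them in both genotypes, FGFR4 and SPRY2 in KO cells.

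Among the Sprouty genes, SPRY2, an inhibitor of receptor kinase signaling upstream of ERK, stood at 7.15, 6.52 and 6.82 CPM in WT BMP-off and at 8.02, 8.24 and 7.18 CPM in WT BMP-on. KO libraries had 7.47, 7.31 and 7.03 CPM with BMP-off and 9.04, 11.6 and 11.3 CPM with BMP-on. Every KO BMP-on library lay above all 9 others. SPRY2 rose on BMP in KO cells by 0.55 (SE 0.11, edgeR adjusted p = 0.00147) on the log2 scale, which is 1.46-fold. In WT cells the fold change was 0.19 (SE 0.11, adjusted p = 0.444). The difference between these responses was 0.36 (SE 0.15) and did not pass (adjusted p = 0.419). With BMP-on, SPRY2 in KO cells exceeded WT cells by 0.44 (SE 0.10, adjusted p = 0.0233), and with BMP-off the difference was 0.09 (SE 0.11, adjusted p = 0.784).

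The KO response of SPRY2 passed the threshold under every alternative that was run, with a fold change between 0.38 and 0.65. It was 0.55 (adjusted p = 0.00257) without KO BMP-off replicate 2, 0.51 (adjusted p = 0.00399) without KO BMP-off replicate 3 and 0.55 (adjusted p = 0.000186) with the GC correction. The SPRY2 transcript has a GC content of 48.3%, near the middle of the tested genes. The KO against WT difference with BMP-on also passed with the GC correction (0.44, adjusted p = 0.00501). It did not pass without WT BMP-on replicate 1 (0.46, adjusted p = 0.0666), replicate 2 (0.49, adjusted p = 0.0549) or replicate 3 (0.38, adjusted p = 0.149), or without KO BMP-on replicate 2 (0.38, adjusted p = 0.123) or replicate 3 (0.39, adjusted p = 0.131). It also did not pass by limma-voom (0.40, adjusted p = 0.0759).

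SPRY4, another inhibitor induced by ERK, stood at 12.6, 11.9 and 13.2 CPM in WT BMP-off and at 14.1, 15.02 and 13.8 CPM in WT BMP-on. In KO cells it stood at 15.04, 14.02 and 15.5 CPM with BMP-off and at 16.1, 17.8 and 15.5 CPM with BMP-on. The 3 WT BMP-off libraries were the lowest of the 12. No comparison passed. The log2 fold change on BMP was 0.19 (SE 0.08, edgeR adjusted p = 0.279) in WT and 0.15 (SE 0.08, adjusted p = 0.200) in KO cells. KO exceeded WT by 0.20 (SE 0.08, adjusted p = 0.243) with BMP-on and 0.24 (SE 0.08, adjusted p = 0.384) with BMP-off, with an interval of 2 SE from 0.08 to 0.40 for the latter. The antisense gene SPRY4-AS1 at this locus had a median of 2 counts.

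SPRY1 had 2 to 14 counts per library, or 0.10 to 0.54 CPM, and its groups overlapped throughout. Its log2 fold change on BMP was 0.11 (SE 0.46) in WT and -0.21 (SE 0.42) in KO cells. Neither passed by edgeR (adjusted p = 0.937 and 0.768), and intervals of 2 SE ran from -0.81 to 1.03 and from -1.05 to 0.64, so differences of up to about 2-fold were not detectable at this depth.

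SPRED1 and SPRED2 encode membrane-bound inhibitors that hold back RAS activation of RAF, SPRED1 by recruiting the RAS-inactivating protein NF1. SPRED1 stood at 58.8, 55.2 and 53.1 CPM in WT BMP-off, 60.5, 58.5 and 57.6 CPM in WT BMP-on, 63.1, 65.9 and 55.8 CPM in KO BMP-off and 56.9, 58.6 and 58.0 CPM in KO BMP-on. The groups overlapped in the BMP comparison of each genotype. Its log2 fold change on BMP was 0.08 (SE 0.06, edgeR adjusted p = 0.601) in WT and -0.09 (SE 0.06, adjusted p = 0.313) in KO cells. SPRED1 transcripts are among the poorest in GC (36.3%, above only 3.79% of tested genes), and with the GC correction the KO value was 0.01 (adjusted p = 0.901). Without KO BMP-off replicate 3, the library of its group whose levels rose most with GC content, SPRED1 fell by 0.17 on the log2 scale in KO cells (adjusted p = 0.0409).

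SPRED2 stood at 62.6, 55.8 and 63.1 CPM in WT BMP-off and at 68.0, 65.5 and 65.4 CPM in WT BMP-on. For KO cells the values were 59.9, 60.8 and 59.0 CPM with BMP-off and 62.2, 71.5 and 65.8 CPM with BMP-on. In both genotypes the BMP-on libraries lay above the BMP-off libraries by a small margin. The log2 fold changes were 0.13 (SE 0.06, edgeR adjusted p = 0.309) in WT and 0.15 (SE 0.06, adjusted p = 0.0846) in KO cells, and neither passed. Scaling by library size alone gave 0.17 (adjusted p = 0.0487) in KO cells.

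With BMP-off, 0 of the 9 tested members differed between KO and WT cells by edgeR, where 0.0407% of all genes passed. DESeq2 also gave 0. At an unadjusted p under 0.05, and leaving out FGFR3, 2 of 8 members were found (SPRY4 and SPRED1, both higher in KO), against 10.2% of all genes. The difference between the BMP responses of KO and WT cells likewise passed for 0 members by edgeR and by DESeq2, with 0.0931% of all genes past the threshold, and 1 of 8 members (SPRY2) had an unadjusted p under 0.05, as had 10.6% of all genes. Over the 8 tested members other than FGFR3, the median log2 fold change on BMP was 0.16 in WT and 0.15 in KO cells, beside 0.00 and 0.01 over all tested genes.

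**Figure D4:**
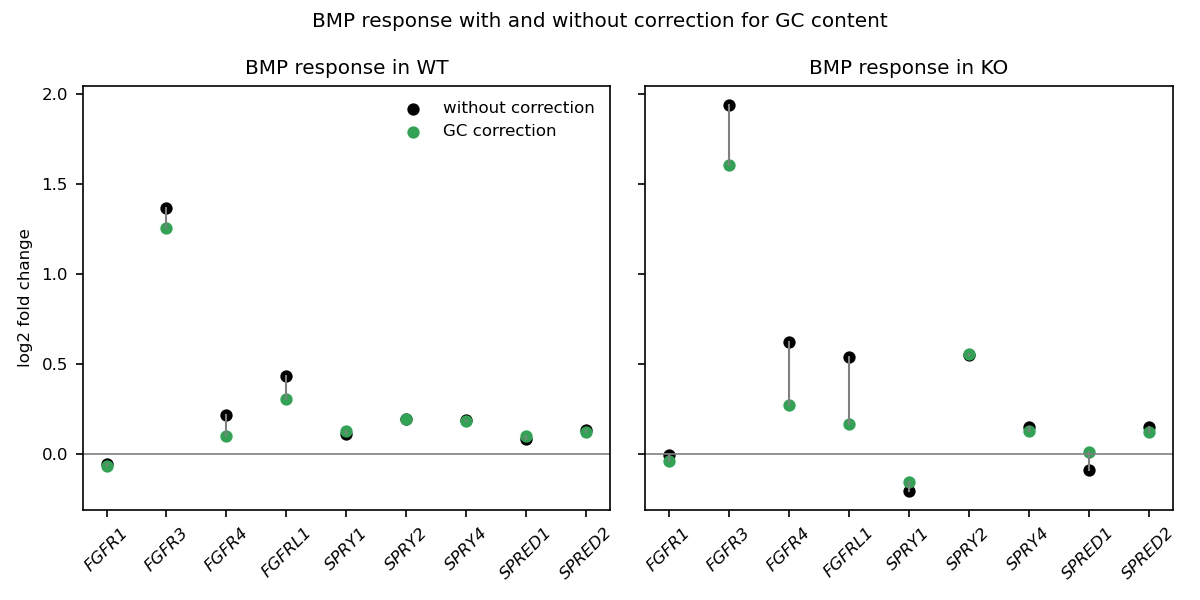
Log2 fold change of BMP-on over BMP-off (vertical axis) for the 9 tested members in WT (left) and KO cells (right), without (black) and with (green) the correction for GC content, joined by lines. In KO cells FGFR4 moves from 0.62 to 0.27 and FGFRL1 from 0.54 to 0.16, whereas SPRY2 is at 0.55 both ways.

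The remainder of the pathway was read from 4 lists compiled from general knowledge. In bulk RNA, fewer cells with a transcript and less of it per cell cannot be told apart, for these genes and for the members. Of 22 genes on the FGF ligand list, 9 had 0 counts in every library and 5 could be tested. In KO cells, 2 of the 5 rose on BMP and 0 fell, where 11.1% of all tested genes rose and 10.9% fell. FGF18, a secreted ligand of FGFR3 in the skeleton, went from 0.924 to 1.54 CPM with BMP-off to 2.22 to 2.87 CPM with BMP-on, a log2 fold change of 1.00 (SE 0.23, edgeR adjusted p = 0.00508). FGF11, which encodes an FGF kept inside the cell and not a secreted ligand, changed by 0.63 (SE 0.21, adjusted p = 0.0431), with overlapping groups. It did not pass with the GC correction (0.50, adjusted p = 0.0874). In WT cells 0 of the 5 passed by edgeR, where 1.91% of all genes rose and 2.01% fell, and the GC correction gave 1 (FGF1, 1.28, adjusted p = 0.0466). With that correction 3.42% of all genes rose and 5.60% fell in WT cells, and 10.8% rose and 14.1% fell in KO cells. FGF1 is scarce, at 0.233 CPM on average in WT BMP-off and 0.570 CPM in WT BMP-on.

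Of 16 coreceptors and extracellular modulators, 10 were tested, and in each genotype 1 rose and 2 fell on BMP, beside 1.91% and 2.01% of all genes in WT and 11.1% and 10.9% in KO cells. FLRT2, a membrane protein of a family that binds FGF receptors, rose by 0.56 (SE 0.15, edgeR adjusted p = 0.0390) in WT and by 0.56 (SE 0.14, adjusted p = 0.00909) in KO cells. SDC4, a heparan sulfate proteoglycan, fell from a mean of 360.5 CPM to 279.9 CPM in WT cells and from 362.8 CPM to 237 CPM in KO cells. These are log2 fold changes of -0.37 (SE 0.04, adjusted p = 0.000105) and -0.62 (SE 0.04, adjusted p = 1.21e-07). IL17RD, a membrane inhibitor of FGF signaling also called SEF, changed by -0.57 (SE 0.15, adjusted p = 0.0417) in WT and -0.48 (SE 0.14, adjusted p = 0.0274) in KO cells. Between KO and WT cells with BMP-on, SDC4 was the 1 gene of the list that differed, at -0.24 (SE 0.04, adjusted p = 0.00448). With the GC correction, 2 genes rose and 3 fell in WT cells, and 1 rose and 4 fell in KO cells. Over all genes these shares were 3.42% and 5.6% in WT cells and 10.8% and 14.1% in KO cells. In the same correction under BMP-on 3 genes of the list were lower in KO cells compared with WT, namely SDC4 (-0.24), SDC1 (-0.19, adjusted p = 0.000643) and GPC1 (-0.17, adjusted p = 0.0374), where 2.60% of all genes were higher and 4.82% lower.

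All 25 adaptors and components of the RAS to ERK cascade were tested. In WT cells 0 rose and 1 fell (1.91% and 2.01% of all genes), and in KO cells 3 rose and 4 fell, a share near the 11.1% and 10.9% of all genes. KSR1, a scaffold that brings RAF, MEK and ERK together, fell on BMP in both genotypes. It went from 51.7 to 55.9 CPM to 35.9 to 45.2 CPM in WT cells (log2 fold change -0.37, SE 0.08, edgeR adjusted p = 0.0184). In KO cells it went from 43.7 to 50.1 CPM to 28.0 to 33.6 CPM (-0.57, SE 0.09, adjusted p = 0.000191). Between genotypes with BMP-on, KSR1 was also lower in KO cells, at -0.41 (SE 0.09, adjusted p = 0.0109). With BMP-off this difference was -0.21 (SE 0.08) and did not pass (adjusted p = 0.4245), although the KO libraries all lay below those of WT. The adaptor SHC1 (0.22), the kinase ARAF (0.26) and the RAS exchange factor SOS2 (0.16) rose in KO cells, and the docking proteins GAB1 (-0.29) and GAB2 (-0.19) fell, with adjusted p from 0.00821 to 0.0345. With the GC correction SHC1 (0.06), ARAF (0.03) and GAB1 (-0.20) did not pass, and the counts in KO cells were 1 higher and 2 lower. The correction raised the counts elsewhere, to 3 lower in WT cells (KSR1, GAB2 and MAPK3) and to 1 higher (SOS2) and 2 lower (KSR1 and GAB2) between genotypes under BMP-on. Over all genes, the correction gave 10.8% higher and 14.1% lower in KO cells, and 3.42% and 5.6% in WT cells. Between genotypes under BMP-on it gave 2.6% and 4.82%.

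Of 16 output genes of ERK, 15 were tested. In WT cells 1 rose and 1 fell, in KO cells 3 rose and 1 fell, and with BMP-on 2 were higher and 0 lower in KO cells compared with WT. Over all genes, 1.91% rose and 2.01% fell in WT cells, 11.1% rose and 10.9% fell in KO cells, and 1.32% were higher and 2.34% lower in KO against WT cells. CCND1, which encodes cyclin D1, rose by 0.26 (SE 0.05) in both genotypes, with edgeR adjusted p of 0.00928 in WT and 0.00249 in KO cells. DUSP5, a nuclear phosphatase of ERK, fell by 0.23 on the log2 scale (SE 0.06, adjusted p = 0.0475) in WT and by 0.32 (SE 0.06, adjusted p = 0.00137) in KO cells. In KO cells, FOS rose by 0.43 (SE 0.09, adjusted p = 0.00232) and MYC by 0.40 (SE 0.07, adjusted p = 0.000970). With BMP-on, MYC was higher in KO compared with WT cells by 0.31 (SE 0.07, adjusted p = 0.0228), as was SPRED3, the third SPRED gene, by 0.45 (SE 0.12, adjusted p = 0.0398). With BMP-off, KO exceeded WT cells by 0.04 (SE 0.07, adjusted p = 0.865) for MYC and by 0.26 (SE 0.12, adjusted p = 0.477) for SPRED3.

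DUSP6, ETV4 and ETV5 were singled out after their values were seen, because they are commonly read as outputs of FGF and ERK signaling beside SPRY2 and SPRY4. On BMP they changed by 0.00 (SE 0.15), 0.10 (SE 0.07) and 0.01 (SE 0.04) on the log2 scale in WT cells and by 0.15 (SE 0.14), 0.13 (SE 0.07) and -0.01 (SE 0.04) in KO cells. None of the 3 passed by edgeR, with adjusted p from 0.208 to 1.00. With the GC correction ETV4 was lower with BMP-on in KO cells (-0.16, adjusted p = 0.0217), the opposite sign to the value without it. Between genotypes with BMP-on, KO exceeded WT cells by 0.32 (SE 0.14) for DUSP6, 0.04 (SE 0.07) for ETV4 and 0.08 (SE 0.04) for ETV5. These did not pass by edgeR (adjusted p = 0.33, 0.88 and 0.43). By the GC correction 3 of the 15 output genes rose and 3 fell in KO cells, 2 rose and 1 fell in WT cells, and 2 were higher in KO cells between genotypes under BMP-on. Over all genes it gave 10.8% higher and 14.1% lower in KO cells, and 3.42% and 5.6% in WT cells. Between genotypes under BMP-on it gave 2.6% and 4.82%. No gene of the 4 lists passed by edgeR between KO and WT cells with BMP-off or in the difference between the responses. Of all genes, 0.0407% and 0.0931% passed in these comparisons, and 1757 and 1819 genes had an unadjusted p under 0.05. With BMP-off, KO exceeded WT cells for 3 of 5 genes of the ligand list and 7 of 10 coreceptors and modulators. The same held for 14 of 25 cascade genes and 13 of 15 output genes. The median log2 fold changes of these lists were 0.04, 0.08, 0.01 and 0.06 in turn, beside -0.01 over all tested genes. The GC correction gave 1 list gene (SDC4) in the difference between the responses, beside 1.42% of all genes.

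**Figure D5:**
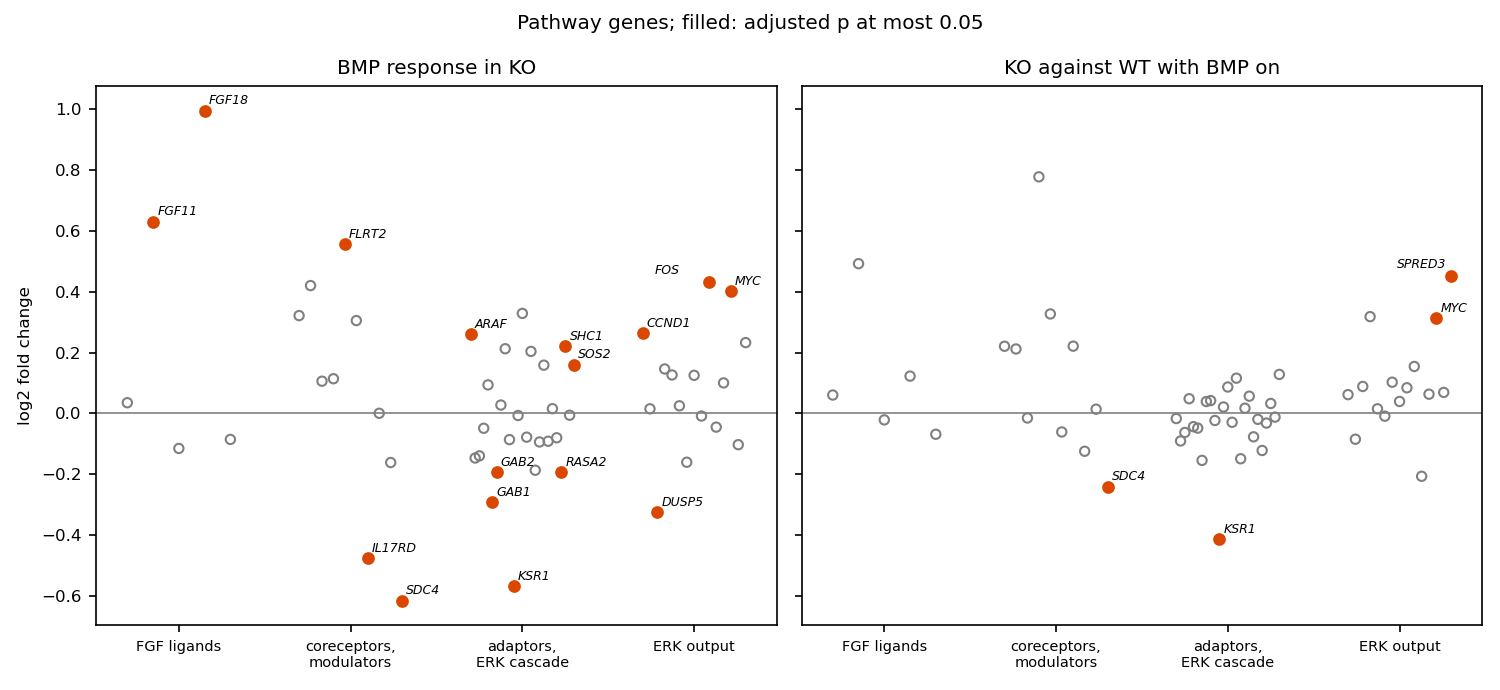
Log2 fold change (vertical axis) of each tested gene of the 4 pathway lists (horizontal axis) for the BMP response in KO cells (left) and for KO against WT cells with BMP-on (right). Filled points with names passed the threshold of 0.05 on the adjusted p. For the BMP response in KO cells they lie on both sides of 0 in every list except the FGF ligand list. The 2 filled points of that list, FGF18 and the intracellular FGF11, lie above 0.

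Markers of other cell types were read per length. The summed level of 5 fibroblast markers was 1.95 to 3.32 RPKM in BMP-off and 4.53 to 6.52 RPKM in BMP-on libraries, with COL1A1 making up nearly all of it and the other 4 (COL1A2, COL3A1, DCN and PDGFRB) under 1 RPKM. All 3 endothelial markers stayed under 1 RPKM, and of the immune markers PTPRC had 0 counts and CD3E stayed under 1 RPKM, while CD14 was at 1.72 to 2.72 RPKM, a level like that of SPRY2. The fibroblast sum moved with BMP as FGFR3 and FGFRL1 did. So did KRT8, at 21.8 to 31.2 RPKM in BMP-off and 33.4 to 43.2 RPKM in BMP-on libraries, while EPCAM moved the other way, from 3.74 to 5.08 RPKM down to 2.53 to 3.50 RPKM. The part of these in the members' values was not tested.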

How the data were processed

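MIB1-iKO cells were sequenced as single-end 50-base reads. Ribosomal reads were discarded by the authors, who mapped the remainder to GRCh38 with GSNAP and used HTSeqGenie for counting over RefSeq exons. The deposited counts are whole numbers without normalization, and the deposited RPKM values were scaled by the authors to gene length and library size. The labels describe a stranded and an unstranded library kit, and which was used is not given in the sources used here.

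Groups came from the sample titles. Members and lists were chosen with earlier results of these data known. The test was the robust quasi-likelihood test of edgeR 4.0.16 (R 4.3.3) with TMM scaling. All 12 libraries shared 1 fit, 17188 genes were left by the default filter, and p was adjusted over them by the Benjamini-Hochberg method in each of 5 comparisons. SE is the log2 fold change over the square root of its F statistic. Named were all members and, per list and comparison, at most 6 genes past an adjusted p of 0.05, taken from the lowest. DUSP6, ETV4 and ETV5 were named outside this rule, after their values were seen.

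Alternatives were limma 3.58.1 (the study's own limma-voom test on quantile-normalized counts), DESeq2 1.42.0, library size or upper quartile scaling, 2 other count filters, only the groups compared, a replicate block, each library left out, and limma on log2(RPKM + 1) or log2(RPKM + 0.1) with a mean RPKM of at least 0.1, the first also without that filter. A further one was a GC correction, an offset from a loess trend (span 0.4) fitted in each library against GC content, taken from each gene's longest transcript. Of the identifiers, 770 had no symbol. Replicates of a group differed by 2.88 to 16.2 times counting variance per gene. One immune marker is not reported here.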

Additional observations from a re-analysis of the deposited data

How the results depend on the processing

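Values were recomputed under up to 24 alternatives. The number of members past the adjusted p was 2 of 9 for the BMP response in WT cells (range 1 to 2 when leaving out 1 library, and 1 with log2(RPKM + 1) without a filter), 4 in KO cells (3 to 5), 2 for KO against WT with BMP-on (1 to 2), 0 with BMP-off (0 to 0) and 0 for the difference between responses (0 to 1). KO against WT with BMP-on gave 1 by limma-voom and by limma on log2(RPKM + 1), with and without the filter, and on log2(RPKM + 0.1), where SPRY2 did not pass, and 3 in a fit of only the groups compared, where FGFR4 passed (0.25, adjusted p = 0.0389). That fit cannot be given for the difference between responses, which uses all groups, and SPRY1 has no value with at least 10 counts in every library or, except in the KO response, in that fit, where it was filtered out. The 1 member counted for the difference between responses without a filter on low counts, and without KO BMP-off replicate 3, was FGFR3, which was chosen on these responses, so this is no test of it. FGFRL1 in WT cells did not pass with log2(RPKM + 1) without a filter (0.39, adjusted p = 0.0862), and FGFR4 in KO cells did not pass there (0.55, adjusted p = 0.0666) or without a count filter (0.62, adjusted p = 0.103). The cause was not tested.

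The labels' replicate numbers showed no pairing of libraries between groups (2 of 18 pairs had a correlation of residuals above 0.1, range -0.187 to 0.189), and the replicate block gave 2, 4, 2, 0 and 0 members in the 5 comparisons.

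Among the members, signs turned only for values that did not pass. For FGFR1 the KO response was 0.035 by limma-voom and 0.011 by library size, with a range of -0.075 to 0.054 when 1 library was left out, KO against WT with BMP-on was 0.0017 by limma-voom, and the difference between responses was -0.015 to 0.115 over the libraries left out. For SPRED2, KO against WT with BMP-off was 0.0030 by limma-voom and 0.0026 by upper quartile (-0.072 to 0.022 over libraries left out). With BMP-on it was -0.0034 without a filter, -0.0068 with the GC correction, -0.0051 with log2(RPKM + 1), with and without the filter, and -0.0055 with log2(RPKM + 0.1) (-0.053 to 0.048). Its difference between responses was -0.0037, -0.0047, -0.0047 and -0.0052 with the GC correction, log2(RPKM + 1) with and without the filter, and log2(RPKM + 0.1) (-0.035 to 0.071). SPRED1 in KO cells was 0.011 and the FGFRL1 difference between responses -0.14 with the GC correction. With log2(RPKM + 0.1), SPRY1 was -0.0043 in KO against WT cells under BMP-on. Over libraries left out, SPRY1 ranged from -0.80 to 0.12 (KO response), -0.12 to 0.28 (WT response), -0.41 to 0.51 (KO against WT, BMP-on) and -0.91 to 0.012 (difference between responses). KO against WT with BMP-off ranged from -0.061 to 0.15 for FGFR3, -0.095 to 0.0997 for FGFRL1 and -0.38 to 0.032 for FGFR4. FGFR2 and SPRY1 are limited by counts of at most 4 and 14 per library.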

Other observations

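Over the 12 libraries, the genes whose log2 CPM ran most like that of FGFR3, among 12836 genes with a mean of at least 50 counts, were ACOT11 (Pearson r = 0.992), NPR1 (0.991), CHD5 (0.991), ADAMTSL3 (0.990) and DUSP1 (0.990). Mean CPM in WT BMP-off, WT BMP-on, KO BMP-off and KO BMP-on was 29.2, 52.1, 28.6 and 68.9 for NPR1, a natriuretic peptide receptor, and 81.7, 109, 76.9 and 130.0 for DUSP1, a MAP kinase phosphatase. Among the members, r with FGFR3 was 0.95 for FGFRL1, 0.81 for SPRY2, 0.79 for FGFR4, 0.73 for SPRED2, 0.67 for SPRY4, -0.12 for SPRED1, -0.17 for FGFR1 and -0.20 for SPRY1. The libraries share 4 groups, so these values largely describe differences between group means and carry no p.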
